A study of Mus musculus with 12 samples.

Results

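The effect of interferon-gamma (IFNG) on gene expression was compared between 2 mouse melanoma cell lines, B16 and YUMM1.1. The quantity described is the difference of the IFNG effects, that is, the log2 change from untreated to treated YUMM1.1 cells minus the same change in B16 cells. All 12 libraries of the series entered it, and it was tested for 13603 of 55416 gene IDs, those with enough reads. Bulk RNA-seq libraries had been made from total RNA of each line, either left untreated or kept for 48 h with 10 ng/ml recombinant mouse IFNG, with 3 libraries in each of the 4 groups. B16 is a pigmented melanoma line from a C57BL/6 mouse. YUMM1.1 comes from an engineered mouse melanoma that carries mutant Braf. Each genotype is represented by a single cell line, so the difference is one between 2 lines, and genotype, line and sequencing depth cannot be told apart.

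IFNG binds a receptor built from the chains Ifngr1 and Ifngr2, and the kinases Jak1 and Jak2 on that receptor pass the signal to transcription factors that bind GAS elements in promoters. Irf1, an early target, carries the response on at ISRE elements. In melanoma cells the cytokine is known to raise antigen presentation genes, chemokines and the checkpoint ligand Cd274 (PD-L1), and it can slow growth and alter pigmentation.

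Library totals ran from 2573805 to 7888257 counts in B16 and from 19145253 to 24747859 in YUMM1.1. Mitochondrial transcripts took 0.52% to 1.946% of counts, the highest share being in B16 IFNG 3. Counts of B16 IFNG 1 and IFNG 2 differed from each other by a chi-square of 1.28 per degree of freedom, close to sampling noise, and from IFNG 3 by 18.5 and 18.2. Pairs of B16 controls differed by 1.59 to 3.42, and pairs within the deeper YUMM1.1 groups by 14.7 to 45.4. With IFNG 1 and 2 summed into 1 library, 2241 genes had a called difference in place of 2510, and without IFNG 3 the count was 2460. With the YUMM1.1 libraries thinned to the depth of B16 it was 2212 of 12183 genes tested. The summed level of 8 melanocyte lineage markers was 28380 to 35490 CPM (counts scaled to a common library total) in B16 and 723 to 820 CPM in YUMM1.1, where Tyrp1 had 0 reads. These pigment cell markers were thus far lower in YUMM1.1, although both lines are labelled as melanoma. The sum of 7 fibroblast markers was 3.16 to 17.9 CPM in B16 and 756 to 1168 CPM in YUMM1.1, where Dpt and Thy1 had 0 reads. Summed leukocyte markers were at 2.79 to 7.35 CPM throughout. The part of these levels in the differences below was not tested.

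The promoters of 4 genes frame the results: Gbp7 and Socs1 rose in both lines and more in B16, H2-Q4 rose in both and more in YUMM1.1, and Trib3 moved in opposite directions. Each is the RefSeq window on GRCm38.p6 from 250 bases before the start site to 50 bases from it on, given on the strand of the gene. Capitals mark the GAS motif TTCNNNGAA, the ISRE core (GAAA, any 2 bases and GAAA again, or the reverse complement), and, in Trib3, the C/EBP-ATF element TGATGNAA or its reverse complement TTNCATCA, at which Atf4 is known to bind. The windows lie at chr3:142530086-142530385 (plus strand) for Gbp7, chr16:10785487-10785786 (minus strand) for Socs1, chr17:35379367-35379666 (plus strand) for H2-Q4 and chr2:152344011-152344310 (minus strand) for Trib3.
Gbp7: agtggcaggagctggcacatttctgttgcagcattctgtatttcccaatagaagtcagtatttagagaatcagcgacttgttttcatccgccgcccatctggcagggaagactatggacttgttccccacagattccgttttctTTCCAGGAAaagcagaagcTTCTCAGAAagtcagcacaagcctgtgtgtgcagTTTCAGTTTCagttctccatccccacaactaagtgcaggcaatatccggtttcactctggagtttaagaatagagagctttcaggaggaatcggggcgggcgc
Socs1: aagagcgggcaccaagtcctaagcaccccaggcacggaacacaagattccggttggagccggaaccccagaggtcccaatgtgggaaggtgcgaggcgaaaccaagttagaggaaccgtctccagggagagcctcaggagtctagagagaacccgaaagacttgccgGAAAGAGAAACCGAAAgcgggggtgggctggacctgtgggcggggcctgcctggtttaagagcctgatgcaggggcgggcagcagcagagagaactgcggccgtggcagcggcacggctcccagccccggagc
H2-Q4: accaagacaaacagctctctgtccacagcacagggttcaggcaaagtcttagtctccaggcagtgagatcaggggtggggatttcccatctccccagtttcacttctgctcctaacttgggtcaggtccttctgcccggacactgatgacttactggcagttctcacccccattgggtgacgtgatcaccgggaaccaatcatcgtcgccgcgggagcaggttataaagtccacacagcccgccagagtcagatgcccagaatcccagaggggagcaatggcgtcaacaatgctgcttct
Trib3: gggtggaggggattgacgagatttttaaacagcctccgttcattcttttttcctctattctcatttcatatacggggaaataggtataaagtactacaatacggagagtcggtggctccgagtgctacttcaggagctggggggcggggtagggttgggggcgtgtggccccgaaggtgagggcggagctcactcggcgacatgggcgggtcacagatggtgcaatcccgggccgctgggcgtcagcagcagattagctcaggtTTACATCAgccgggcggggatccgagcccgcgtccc
With the start site as base 0, Gbp7 has GAS motifs at -106 and -87 and an ISRE at -53. Socs1 has ISRE motifs at -83 and -77, which overlap. None of the motifs was found in the H2-Q4 window, and Trib3 has its element at 14, downstream of the start site. The search took exact matches of these letters, so an element spelled otherwise would be missed.

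Most genes with a called difference moved in B16 and had no call in YUMM1.1. In B16 4985 of 13603 genes (36.6%) changed, 2435 higher (17.9%) and 2550 lower (18.7%). In YUMM1.1 761 genes (5.59%) changed, 610 higher (4.48%) and 151 lower (1.11%). The median standard error (SE) of the log2 effect was 0.175 in B16 and 0.157 in the deeper YUMM1.1 libraries. Both came from the same fit with a shared spread per gene, so they do not compare the replicate spread of the lines. The difference itself was called for 2510 genes (18.5%), where edgeR's quasi-likelihood test gave an adjusted p (Benjamini-Hochberg) below 0.05. It was positive, with YUMM1.1 above B16, for 1353 genes (9.95%) and negative for 1157 (8.51%). Counts in the gene lists below stand against these shares. A positive difference can mean a larger rise in YUMM1.1 or a larger fall in B16. Of the 2510 genes, 1272 differed by at least 1 on the log2 scale, 782 above and 490 below. The split depends on how libraries are scaled: with library totals in place of TMM factors it was 1727 above and 886 below, and the median difference of all genes moved by 0.0933. The majority turned round with RLE size factors, at 1224 above and 1326 below, and with DESeq2, at 1323 above and 1504 below. In bulk RNA, fewer cells that respond and less response per cell cannot be told apart.

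**Figure D1:**
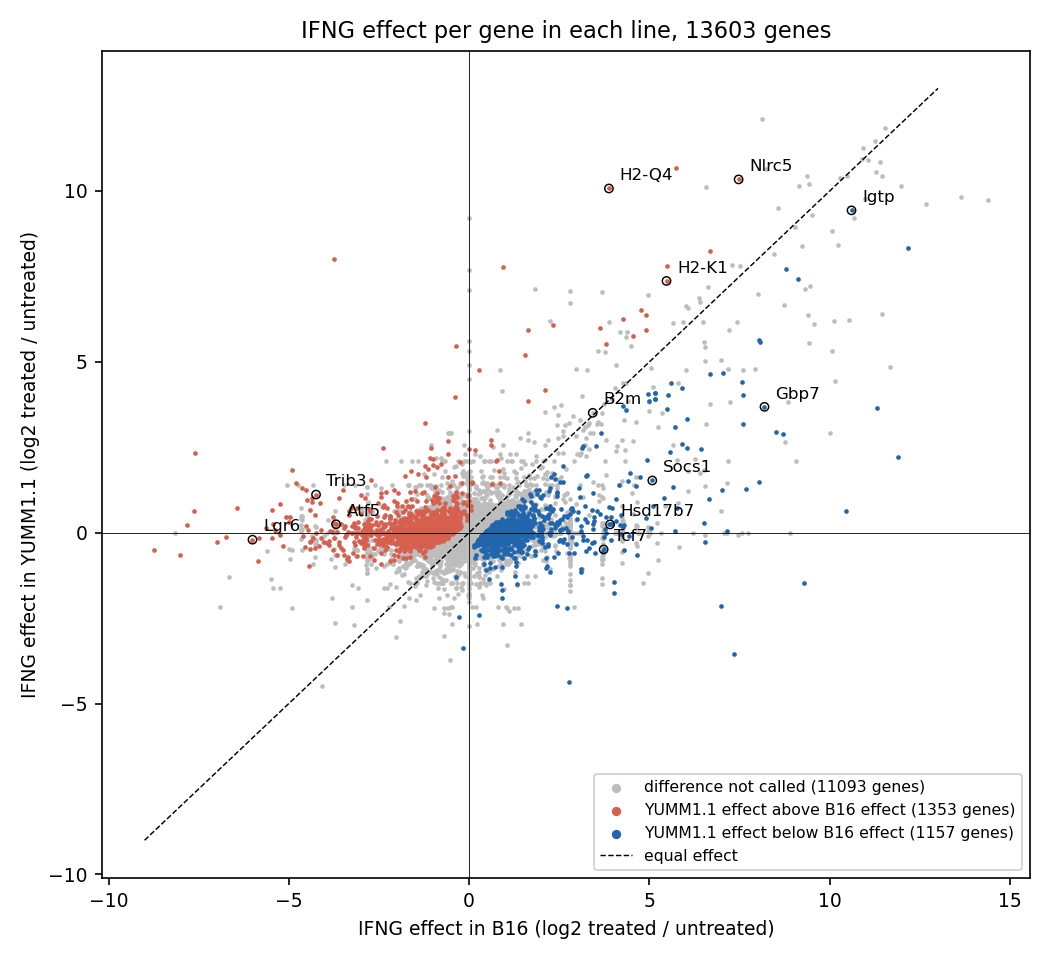
Log2 effect of IFNG in B16 (x axis) against that in YUMM1.1 (y axis), with a point for each of 13603 genes. The 1353 genes in orange have a called positive difference, the 1157 in blue a called negative one and the 11093 in grey none. The dashed line marks equal effects, and many coloured points lie along the horizontal line at 0 for YUMM1.1.

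Sorted by what each line did, 1177 of the called differences (46.9%) were genes that fell in B16 with no call in YUMM1.1. Another 967 (38.5%) rose in B16 with no call in YUMM1.1. A rise in both lines that was larger in B16 was found for 122 genes (4.86%), and one larger in YUMM1.1 for 22 (0.876%). Opposite calls were rare, with 42 genes down in B16 and up in YUMM1.1 and 16 the other way. Only 63 genes changed in YUMM1.1 with no call in B16, 52 higher and 11 lower. The remaining called genes were 16 that fell in both lines and more in B16, and 85 with a call in neither line. Over the 2510 genes the median size of the effect was 0.99 log2 units in B16 and 0.19 in YUMM1.1.

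A gene near 0 in one untreated line can fall no further there, so genes were split at a mean of 1 CPM in the controls of each line. Of 10688 genes expressed in both untreated lines, 1236 had a positive and 1033 a negative difference (21.2% called, median SE 0.214). Of 1001 genes near 0 in untreated B16, 9 were above and 47 below (5.59% called, median SE 0.969). In 44 of those 56 genes treated B16 rose over 1 CPM, and in 12 it stayed below. Of 1128 genes near 0 in untreated YUMM1.1, 98 were above and 32 below (11.5% called, median SE 0.759). Here YUMM1.1 stayed below 1 CPM in 101 of 130 genes, so most of these differences record a change in B16 of a gene hardly expressed in YUMM1.1. Of 786 genes near 0 in both, 10 were above and 45 below (7% called, median SE 0.956). The SE was larger in the 3 low classes, and their lower shares of calls do not show that the lines acted alike. The count near 0 in B16 was 33 without B16 control 1, and the count near 0 in both was 34 and 35 without YUMM1.1 control 2 and control 3.

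**Figure D2:**
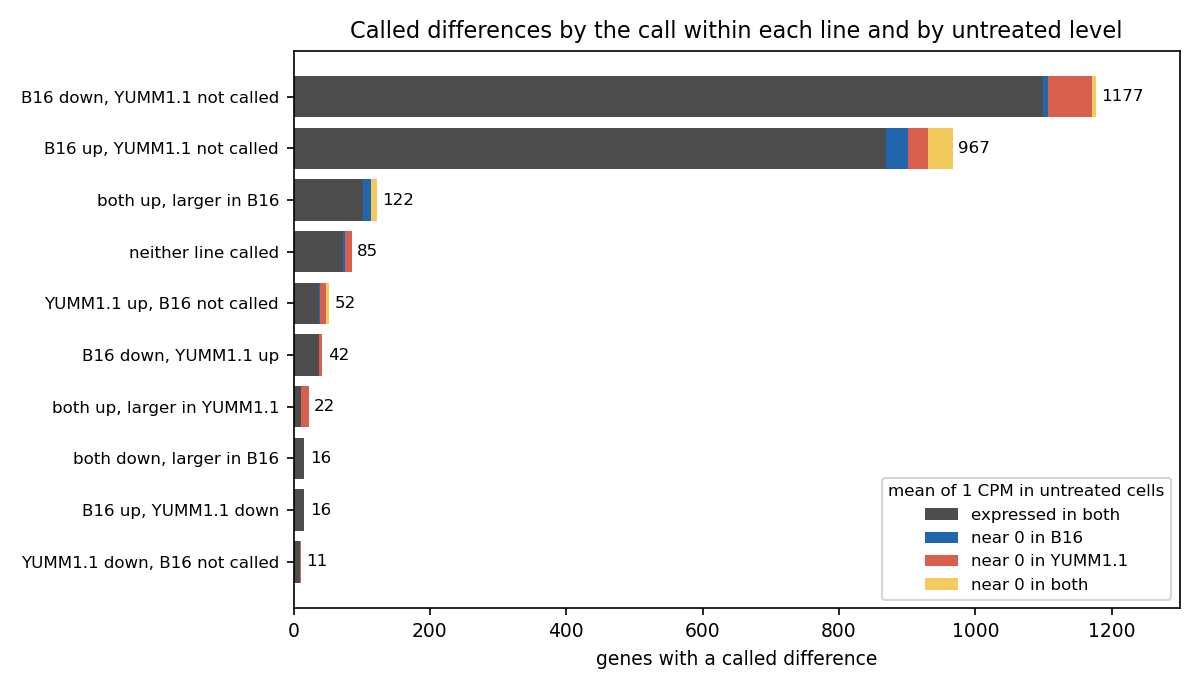
Number of genes with a called difference (x axis) by the behaviour of each line, with bars stacked by level in the untreated lines. The bars for genes called in B16 alone hold 1177 and 967 genes, against 52 and 11 for genes called in YUMM1.1 alone, and genes expressed in both untreated lines fill most of each long bar.

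Most genes of the receptor and its signalling chain rose in each line, with called differences in both directions. Of 12 tested genes for the receptor, JAK-STAT and IRF factors, 8 rose and 1 fell in B16, and 9 rose and none fell in YUMM1.1. The difference was negative for 4 and positive for 2, with a median of 0.07 against 0.02 for all genes. Stat3, a transcription factor of interleukin-6 signalling that interferons can also activate, was at 115, 121 and 117 CPM in B16 controls, 903, 873 and 811 in treated B16, 212, 194 and 204 in YUMM1.1 controls and 439, 480 and 513 in treated YUMM1.1. Treated and control libraries did not overlap in either line, and B16 started lower and ended higher. The difference was -1.74 (SE 0.14, adjusted p = 5.04e-07). Irf1, the early target factor, rose from 23.7 to 32.5 CPM to 763 to 850 in B16 and from 25.8 to 29.9 to 416 to 477 in YUMM1.1, and differed by -0.91 (SE 0.18, adjusted p = 0.00178). Jak2 rose in both and differed by -0.51 (SE 0.16, adjusted p = 0.0399). That call was lost on leaving out any of 9 of the 12 libraries, all but B16 IFNG 2, YUMM1.1 control 1 and YUMM1.1 IFNG 3, with an adjusted p of 0.0568 to 0.12. Reads of Stat3 and Irf1 that fall in overlapping coding genes could belong to either gene.

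Neither receptor chain rose in either line. Ifngr2 fell in B16 from 111 to 126 CPM to 54.1 to 58.3 and was 30.1 to 39.1 and 25.0 to 30.3 CPM in YUMM1.1, where it had no call, a difference of 0.61 (SE 0.17, adjusted p = 0.0209). Its adjusted p was 0.0574 without B16 control 1 and 0.0561 without B16 control 3. Ifngr1 and Jak1 had no called difference (0.29, SE 0.22, adjusted p = 0.405, and 0.22, SE 0.16, adjusted p = 0.393). Irf7, a factor that amplifies interferon responses, rose more in YUMM1.1. It was at 1.94 to 2.28 CPM in B16 controls and 46.1 to 54.3 after treatment, against 0.836 to 0.984 and 60.2 to 106 CPM in YUMM1.1. Its difference was 1.74 (SE 0.42, adjusted p = 0.00815), and 1.48 without B16 control 1 (adjusted p = 0.0734). After thinning the YUMM1.1 libraries it was not called (adjusted p = 0.0617).

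The feedback inhibitors of the SOCS family differed toward B16. Of 11 tested negative regulators of JAK-STAT signalling 4 had a negative difference, namely Socs1, Socs2, Socs3 and Cish, and none a positive one. Socs1, which blocks the JAK kinases and whose promoter carries the overlapping ISRE motifs shown above, was at 1.65, 1.59 and 1.17 CPM in B16 controls, 55.1, 53.9 and 31.5 in treated B16, 30.7, 40.5 and 37.9 in YUMM1.1 controls and 105, 83.0 and 109 in treated YUMM1.1. The untreated YUMM1.1 libraries were thus close to the range that B16 reached after treatment, and treated and control libraries did not overlap in either line. It rose by 5.08 log2 units in B16 and 1.53 in YUMM1.1, a difference of -3.55 (SE 0.37, adjusted p = 6.56e-06). Socs3 rose in B16 by 2.18 with no call in YUMM1.1 (0.52), a difference of -1.67 (SE 0.31, adjusted p = 0.00115). Socs2 fell in YUMM1.1 from 4.81 to 7.69 CPM to 1.34 to 2.26 and was 2.39 to 3.497 and 2.78 to 5.72 CPM in B16, where it had no call, a difference of -2.59 (SE 0.44, adjusted p = 0.000573).

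Classical MHC class I genes rose more in YUMM1.1, which held less of them before treatment. Of 19 tested genes of class I and peptide loading, 5 had a positive difference (H2-K1, H2-D1, H2-Q4, Tap2 and Nlrc5) and 7 a negative one (H2-T23, Tapbp, Tapbpl, Erap1, Calr, Pdia3 and Canx). H2-K1, a class I heavy chain, was at 49.95, 43.4 and 39.2 CPM in B16 controls and 11.7, 14.2 and 16.4 in YUMM1.1 controls. After treatment it was at 1942, 1960 and 1369 CPM in B16 and 1866, 1730 and 2968 in YUMM1.1, so that the treated groups overlapped between the lines while the untreated did not. The difference was 1.89 (SE 0.29, adjusted p = 0.000249). H2-D1, the other classical heavy chain, differed by 2.01 (SE 0.26, adjusted p = 4.29e-05) and reached 1942 to 2775 CPM in B16 and 2387 to 2941 in YUMM1.1.

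H2-Q4, a class I gene of the Q region, had the largest positive difference of the class I list. It was at 9.25, 10.6 and 6.61 CPM in B16 controls, 129, 132 and 95.5 in treated B16, 0.447, 0.679 and 0.72 in YUMM1.1 controls and 578, 561 and 742 in treated YUMM1.1. The untreated order of the lines was inverted after treatment, with no overlap among the 4 groups. It rose by 3.88 log2 units in B16 and 10.07 in YUMM1.1, a difference of 6.19 (SE 0.33, adjusted p = 6.47e-09). Class I genes are near-identical over long stretches, and how reads shared among them were counted is not given in the sources used here, so the values of a single H2 gene are uncertain.

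Nlrc5, the transactivator of class I genes, rose from 1.52 to 3.19 CPM to 326 to 400 in B16 and from 0.0894 to 0.257 to 195 to 239 in YUMM1.1. Its difference was 2.86 (SE 0.49, adjusted p = 0.000452), or 1.95 with YUMM1.1 thinned to the depth of B16. Tap2, a subunit of the peptide transporter, differed by 1.55 (SE 0.40, adjusted p = 0.0111), with an adjusted p of 0.0896 without B16 control 1 and 0.106 after thinning. Its partner Tap1 had no called difference (0.29, SE 0.30, adjusted p = 0.561). B2m, the light chain of class I molecules, rose in both lines by amounts within 1.5-fold of each other. Its libraries went from 382 to 424 CPM to 3130 to 4823 in B16 and from 391 to 449 to 4367 to 4876 in YUMM1.1, and the 95% interval of the difference was -0.33 to 0.49. The negative members are the non-classical class I heavy chain gene H2-T23 and 6 genes for peptide trimming, peptide loading and chaperones (Tapbp, Tapbpl, Erap1, Calr, Pdia3 and Canx). Calr, the endoplasmic reticulum chaperone calreticulin, was at 794 to 921 and 1607 to 1687 CPM in B16, and 1283 to 1450 and 1522 to 1901 in YUMM1.1, a difference of -0.75 (SE 0.16, adjusted p = 0.0037). The 7 negative calls became 4 without B16 control 1, 3 without B16 control 2 and 4 without YUMM1.1 IFNG 1.

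MHC class II genes rose in both lines, and those described here reached far higher levels in B16. All 9 tested class II genes rose in B16 and 7 rose in YUMM1.1, with a median difference of -3.92. A difference was called for 2 of the 9, beside 18.5% over all genes. H2-DMa, which helps load class II molecules, was at 0.761, 0.398 and 1.17 CPM in B16 controls, 172, 188 and 148 in treated B16, 2.73, 3.19 and 2.83 in YUMM1.1 controls and 5.24, 5.78 and 11.96 in treated YUMM1.1. It differed by -6.56 (SE 0.52, adjusted p = 3.11e-07), with higher libraries in untreated YUMM1.1 than in untreated B16. H2-Eb1, a class II beta chain, had 2 reads in the B16 controls together and 271 to 345 CPM after treatment, a ratio of 2433 (95% counting interval 673.1 to 20090). In YUMM1.1 it went from at most 0.309 CPM to between 0.742 and 4.13, and the difference was -7.67 (SE 2.08, adjusted p = 0.0193). Its call was lost without B16 IFNG 3 (adjusted p = 0.0632), YUMM1.1 control 2 (0.0603) or YUMM1.1 control 3 (0.122). Without B16 control 1 no H2-Eb1 read is left in the B16 controls and no fold can be given.

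Ciita, the master regulator of class II genes, reached 269 to 340 CPM in treated B16 and 2.78, 3.03 and 9.83 CPM in treated YUMM1.1. It had no called difference in the test used here (-4.75, SE 1.92, adjusted p = 0.111). Without YUMM1.1 IFNG 3, the library with the highest Ciita, Cd74, H2-Eb1 and H2-DMa levels of that group, its adjusted p was 0.00115, and 5 of the 9 class II genes had a negative call. DESeq2 called 4 of the 9. Cd74, the invariant chain, reached 812 to 1088 CPM in B16 and 3.19 to 17.1 in YUMM1.1, but with 1 read in the YUMM1.1 controls its difference was not resolved (-0.86, SE 4.30, adjusted p = 1).

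Interferon-inducible GTPases, which act against intracellular pathogens, rose in both lines. All 18 tested genes rose in YUMM1.1 and 17 in B16. Of the 18, 5 had a negative difference (Gbp3, Gbp7, Gbp9, Irgm2 and Igtp), against 8.51% of all genes. Without B16 control 2 the negative calls numbered 2. Gbp7 was at 1.78, 2.79 and 1.55 CPM in B16 controls, 474, 489 and 658 in treated B16, 22.5, 18.8 and 17.0 in YUMM1.1 controls and 209, 256 and 242 in treated YUMM1.1. No library of any group overlapped another group. It rose by 8.19 log2 units in B16 and 3.68 in YUMM1.1, the most negative difference of the named genes expressed in both untreated lines (-4.51, SE 0.29, adjusted p = 3.86e-08). Gbp3 differed by -2.38 (SE 0.36, adjusted p = 0.000195), and was likewise higher in untreated YUMM1.1 (24.01 to 31.8 CPM) than in untreated B16 (1.01 to 3.497). Igtp (-1.17, SE 0.29, adjusted p = 0.00927) lost its call without B16 control 1 (0.0634) or control 2 (0.0518). Gbp2, the most abundant of these genes, reached 3563 to 4334 CPM in B16 and 4921 to 7890 in YUMM1.1 without a called difference (-0.28, SE 0.24, adjusted p = 0.46). GTPase genes also share sequence within their families, with the same uncertainty as class I genes.

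Some proteasome genes rose more in B16. Of 5 immunoproteasome and PA28 genes, all rose in both lines and 2 had a negative difference, the subunit gene Psmb10 (-1.09, SE 0.26, adjusted p = 0.00681) and the activator gene Psme2 (-0.74, SE 0.17, adjusted p = 0.00612). Of 14 genes for the constitutive 20S core, 10 rose in B16 and 3 in YUMM1.1, and 6 had a negative difference. Psmb2 rose from 74.3 to 80.4 CPM to 148 to 162 in B16, and from 129 to 158 to 172 to 193 in YUMM1.1, a difference of -0.76 (SE 0.15, adjusted p = 0.00221). Psma5 gave -0.76 as well (SE 0.18, adjusted p = 0.00807). The 6 calls became 3 without B16 control 2 or 3, without YUMM1.1 control 2 or 3, and without YUMM1.1 IFNG 2, and 3 with library totals as scaling.

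Antiviral genes split between the lines. Of 39 tested genes 37 rose in B16 and 35 in YUMM1.1, and 11 had a negative and 5 a positive difference, with a median of -0.24. Ifit2, which binds viral RNA, was at 48.6, 60.8 and 58.3 CPM in B16 controls, 303, 295 and 364 in treated B16, 83.4, 82.8 and 84.3 in YUMM1.1 controls and 93.2, 109 and 128 in treated YUMM1.1. It differed by -2.22 (SE 0.19, adjusted p = 5.04e-07), the treated B16 libraries being well above those of YUMM1.1. Samhd1, which depletes the nucleotides viruses need, gave -1.58 (SE 0.14, adjusted p = 1.29e-06). On the other side were Bst2, which tethers budding virus, and Rtp4. Bst2 was at 67.5 to 72.0 CPM in B16 controls and 4.75 to 7.77 in YUMM1.1 controls, and at 666 to 953 and 227 to 312 CPM after treatment, so it differed by 1.72 (SE 0.25, adjusted p = 0.000164) while B16 kept the higher level. Rtp4 differed by 4.93 (SE 0.68, adjusted p = 6.25e-05), from 2.33 to 2.79 CPM to 109 to 138 in B16 and from at most 0.157 to 95.8 to 154 in YUMM1.1. Its value was 6.10 without YUMM1.1 control 2. Without B16 control 1 the 11 negative calls became 7. Ifi204, a DNA-binding interferon-inducible gene of the p200 family, had 0 reads in the B16 controls and 31.1 to 41.0 CPM after treatment, a rise of at least 185.3-fold when the control group is given 3 counts in all. In YUMM1.1 it rose from 0.771 to 1.41 CPM to 3.48 to 7.45. Intervals and floors cover counting error only.

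Among 9 tested chemokines 2 had a positive difference and none a negative one, beside 18.5% called in either direction over all genes. Their median difference was 3.11, but 1.94 with limma-voom and 1.48 without B16 control 2. The median effect was 0.87 in B16 and 1.33 in YUMM1.1. Cxcl10, which draws T cells through the receptor Cxcr3, was at 14.6, 13.15 and 13.6 CPM in B16 controls, 164, 146 and 147 in treated B16, 2.46, 2.19 and 2.62 in YUMM1.1 controls and 121, 99.4 and 221 in treated YUMM1.1. The untreated lines did not overlap and the treated lines did, and the difference was 2.37 (SE 0.36, adjusted p = 0.000229). Cxcl10 lies over the coding gene Art3, which also rose more in YUMM1.1, and reads in the overlap could belong to either. Ccl5, which draws T cells and monocytes, went from 2.33 to 4.38 CPM to 7.38 to 10.9 in B16 and from 0.154 to 0.179 to 2.18, 3.76 and 12.1 in YUMM1.1. It differed by 3.67 (SE 0.93, adjusted p = 0.00998), or 2.65 without YUMM1.1 IFNG 3, and limma-voom did not call it with or without group weights (adjusted p = 0.0541 and 0.0539). Cxcl9, another ligand of Cxcr3, had 0 reads in the YUMM1.1 controls and 1 in the B16 controls, and reached 7.28 to 13.02 and 4.37 to 8.13 CPM, with no called difference (adjusted p = 0.266).

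Of 12 tested checkpoint and costimulatory ligands, 2 were above and 2 below, beside 18.5% called in either direction over all genes. Cd274, which encodes PD-L1, was at 6.47, 7.57 and 6.61 CPM in B16 controls and 0.76, 0.731 and 0.72 in YUMM1.1 controls. It reached 188, 173 and 183 CPM in treated B16 and 34.0, 41.7 and 54.0 in treated YUMM1.1, so that B16 stayed higher in both states. The rise was 4.89 log2 units in B16 and 5.94 in YUMM1.1, a difference of 1.05 (SE 0.30, adjusted p = 0.0207) that lost its call without B16 control 2 (adjusted p = 0.0665) and after thinning (0.15). Nectin2, a ligand of T and NK cell receptors, fell in B16 from 40.4 to 45.5 CPM to 10.1 to 15.4 with no call in YUMM1.1 (1.39, SE 0.23, adjusted p = 0.000415). Cd47, which inhibits uptake by macrophages, rose in B16 from 29.1 to 32.3 CPM to 77.9 to 120 with no call in YUMM1.1 (-1.37, SE 0.24, adjusted p = 0.000645). Clec2d, a ligand of an inhibitory NK cell receptor, rose in both lines, from 0 to 0.398 CPM to 36.2 to 64.6 in B16 and from 3.5 to 3.94 to 47.1 to 66.6 in YUMM1.1. Its treated levels overlapped, and the difference was -3.58 (SE 0.65, adjusted p = 0.000916).

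The 22 genes that rose in both lines and more in YUMM1.1 include the 5 positive members of the class I list (H2-D1, H2-K1, H2-Q4, Nlrc5 and Tap2) and the 5 of the antiviral list (Bst2, Ifih1, Ifit1, Isg15 and Rtp4), beside Ccl5, Cd274, Cxcl10 and Irf7. Both lists had more negative members, 7 of 19 class I genes and 11 of 39 antiviral genes. In 21 of the 22 the untreated level was lower in YUMM1.1 than in B16, and in 15 the treated level was still lower in YUMM1.1. Of the 122 genes with the larger rise in B16, untreated B16 held the higher level in 25 and treated B16 in 78. Untreated levels enter the difference as well as this comparison, so these counts are a description. Over all tested genes untreated B16 was higher in 57.4% and treated B16 in 52.8%.

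**Figure D3:**
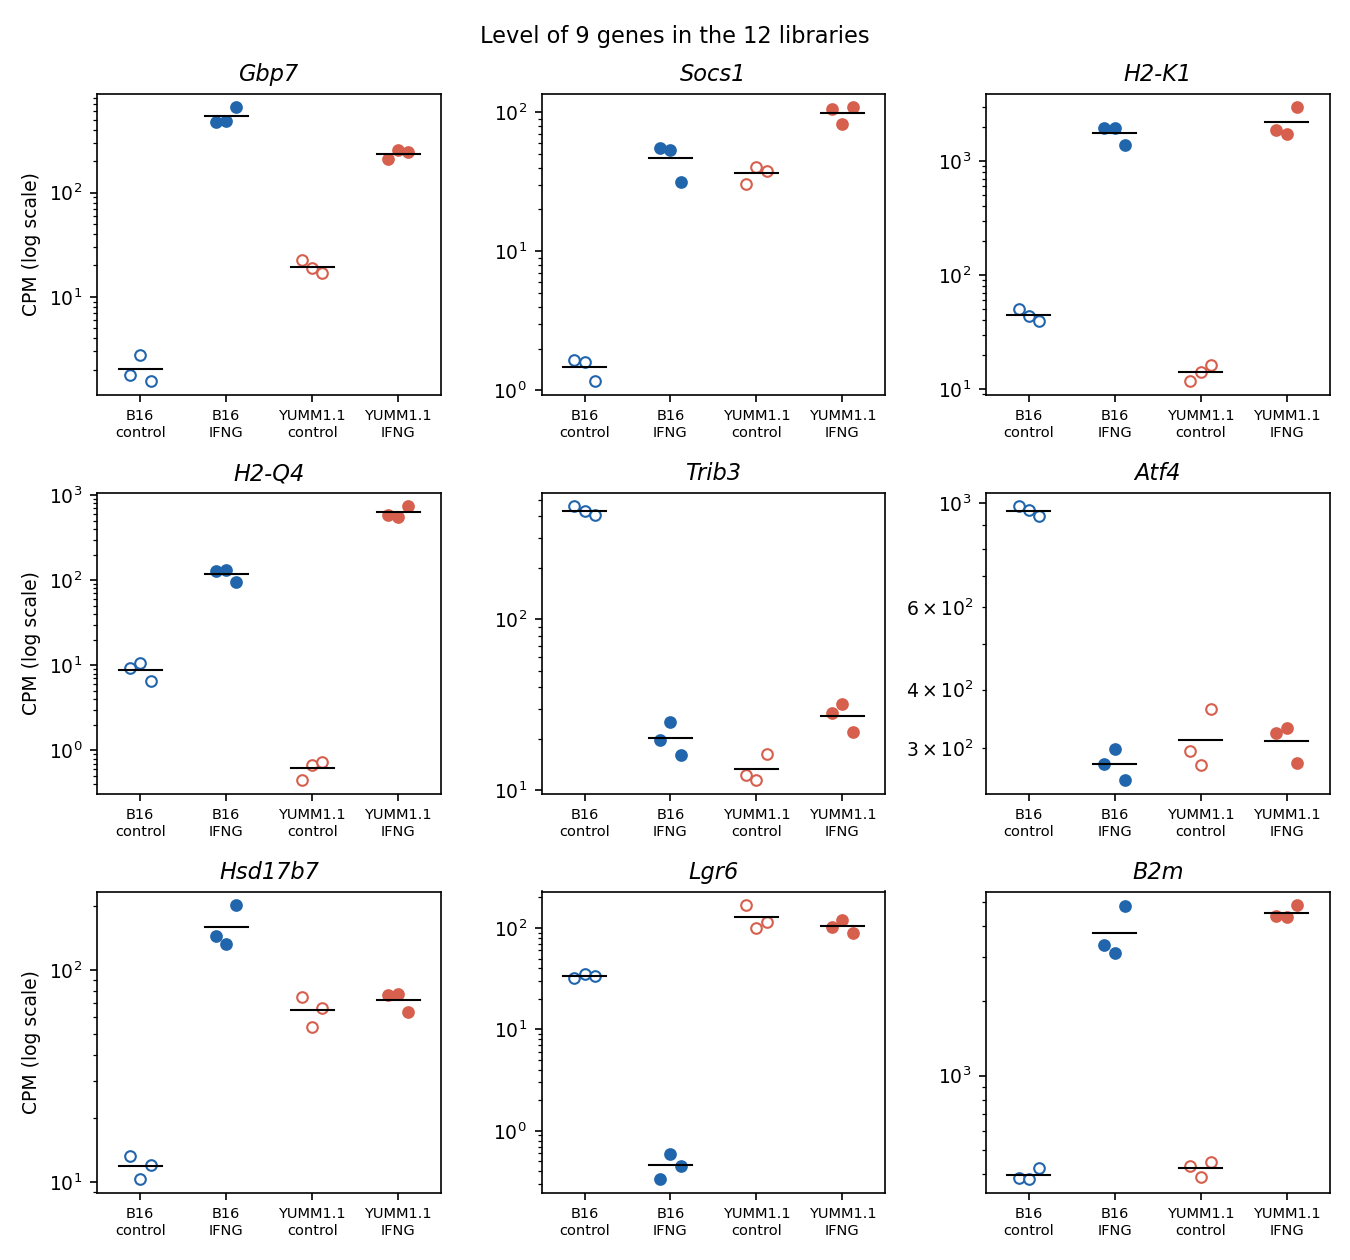
Level in CPM (log y axis) of 9 genes in each of the 12 libraries, with a horizontal line at each group mean. Untreated Socs1 and Gbp7 were higher in YUMM1.1 than in B16, untreated H2-K1 and H2-Q4 were lower, and Trib3, Atf4, Hsd17b7 and Lgr6 moved in B16 while YUMM1.1 moved little or the other way.

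Genes of the integrated stress response fell in B16 and not in YUMM1.1 by the calls. This response raises translation of the factor Atf4, which induces genes for amino acid synthesis and import, and Ddit3 and Trib3 when stress lasts. Of 23 tested genes 21 fell and 1 rose in B16 while 4 rose and none fell in YUMM1.1. The difference was positive for 20 and negative for none, with a median of 1.83 (-1.74 in B16, 0.08 in YUMM1.1). Trib3, a pseudokinase that restrains Atf4, was at 458, 432 and 406 CPM in B16 controls, 19.7, 25.0 and 16.1 in treated B16, 12.3, 11.5 and 16.4 in YUMM1.1 controls and 28.4, 31.8 and 21.9 in treated YUMM1.1. Treated B16 overlapped the YUMM1.1 libraries, untreated B16 was far above them, and the lines had opposite calls with a difference of 5.36 (SE 0.25, adjusted p = 2.24e-09). Trib3 (ENSMUSG00000032715) lies at chr2:152337422-152344032 on GRCm38 as annotated in GENCODE M21.

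Atf4 itself was at 987, 967 and 938 CPM in B16 controls, 278, 299 and 256 in treated B16, 295, 277 and 364 in YUMM1.1 controls and 323, 331 and 279 in treated YUMM1.1. Only the untreated B16 libraries stood apart, and the difference was 1.70 (SE 0.17, adjusted p = 3.68e-06). Its relative Atf5 fell in B16 from 274 to 318 CPM to 14.0 to 23.3 with no call in YUMM1.1 (3.94, SE 0.23, adjusted p = 3.41e-08), and it overlaps the coding genes Nup62 and Il4i1. Ddit3, which encodes the cell death factor Chop, had opposite calls. It was at 136 to 143 and 41.4 to 60.4 CPM in B16 and 18.8 to 26.4 and 30.2 to 36.7 in YUMM1.1, a difference of 1.97 (SE 0.22, adjusted p = 1.39e-05).

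Genes for amino acid supply fell in B16 as well. Asns, asparagine synthetase, went from 717 to 750 CPM to 134 to 155 in B16 and was 151 to 205 and 137 to 229 CPM in YUMM1.1, a difference of 2.31 (SE 0.22, adjusted p = 2.81e-06). Pycr1, an enzyme of proline synthesis, fell from 49.8 to 52.0 CPM to 1.84 to 3.78 in B16 with no call in YUMM1.1 (3.93, SE 0.26, adjusted p = 7.35e-08). Slc7a11, the cystine importer, fell from 63.4 to 90.5 CPM to 3.34 to 6.33 (3.88, SE 0.34, adjusted p = 7.39e-07). Psat1, of serine synthesis, and Chac1, which degrades glutathione, gave 1.49 (SE 0.15, adjusted p = 3.51e-06) and 2.96 (SE 0.29, adjusted p = 3.36e-06). In 18 of the 20 genes untreated B16 was higher than untreated YUMM1.1, and in 7 treated B16 was higher than treated YUMM1.1. Of 21 list members with a promoter window, 8 held the Atf4 element (38.1%), among them Trib3, Asns, Chac1, Pycr1 and Slc7a11, against 2.73% of all tested protein-coding genes.

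**Figure D4:**
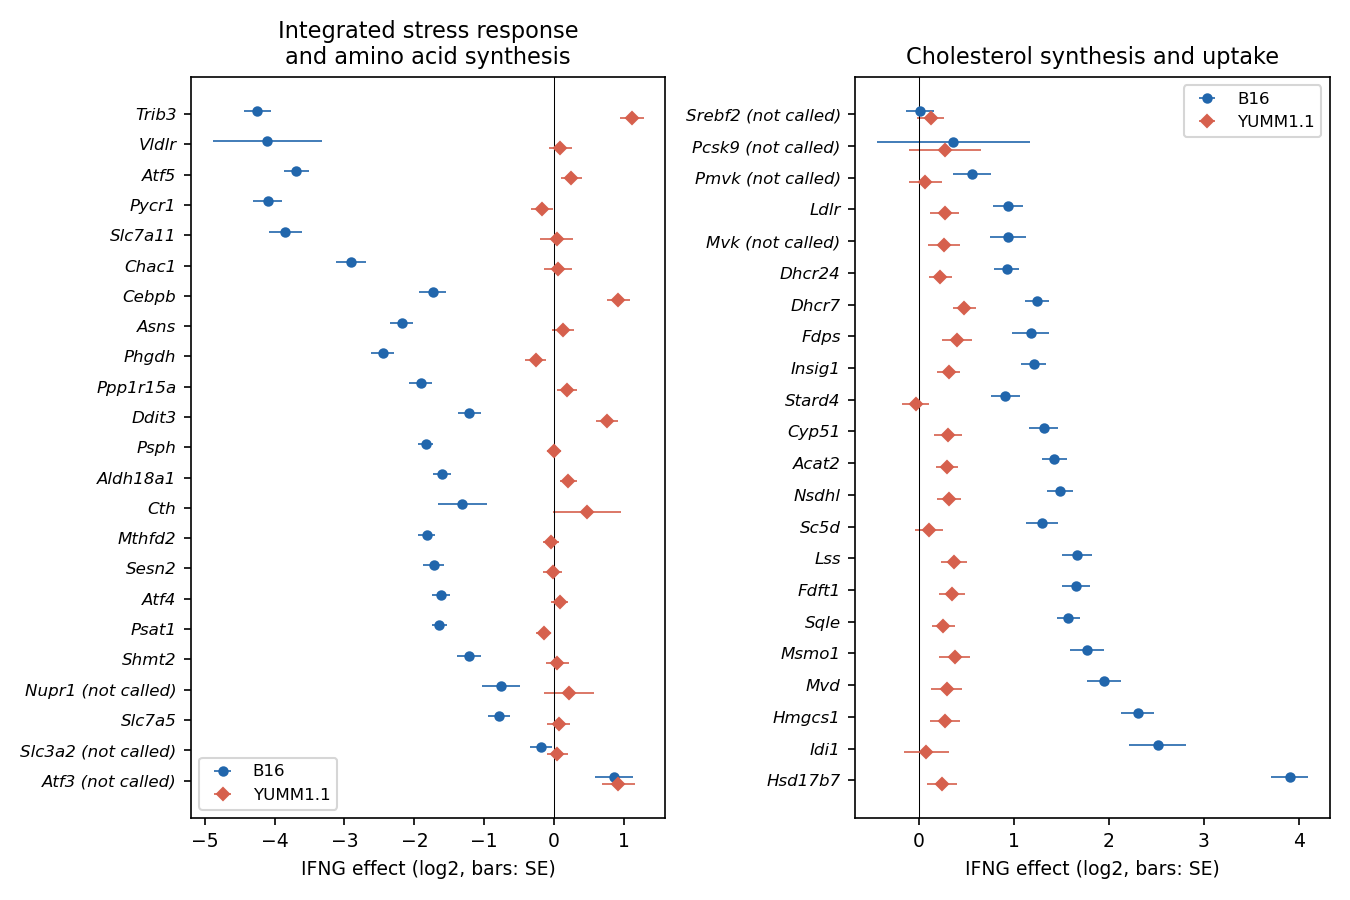
Log2 effect of IFNG with its SE (x axis) in B16 and YUMM1.1 for genes of the stress response and cholesterol lists, with genes whose difference was not called marked in their labels. In B16 most stress response genes lie left of 0 and most cholesterol genes right of it, while most YUMM1.1 points lie near 0.

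Genes of the cholesterol pathway moved the opposite way. They are known targets of the factor Srebf2, which is active when sterols are scarce. Of 23 tested genes 21 rose in B16 and 1 in YUMM1.1, none fell in either, and 19 had a negative difference with a median of -1.04. Hsd17b7, an enzyme of late cholesterol synthesis, was at 13.3, 10.4 and 12.04 CPM in B16 controls, 144, 133 and 202 in treated B16, 74.9, 53.8 and 66.3 in YUMM1.1 controls and 76.7, 77.4 and 63.6 in treated YUMM1.1. Its B16 libraries passed from below to above every YUMM1.1 library, and the difference was -3.67 (SE 0.25, adjusted p = 8.73e-08). Hmgcs1, an early enzyme of the pathway, rose in B16 from 50.8 to 60.6 CPM to 205 to 323, against 180 to 228 and 212 to 272 CPM in YUMM1.1 with no call (-2.03, SE 0.23, adjusted p = 1.41e-05). Sqle, the squalene epoxidase gene, gave -1.32 (SE 0.17, adjusted p = 4.71e-05). In 18 of the 19 genes untreated YUMM1.1 was higher than untreated B16, and in 9 treated YUMM1.1 was higher. Srebf2 itself had no called difference. Of 15 list members with a promoter window 1, Hmgcs1, held the sterol element TCACNCCAC or its reverse complement GTGGNGTGA (6.67%), against 1.41% of all tested protein-coding genes.

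Chaperones of the endoplasmic reticulum rose in B16 while Herpud1 fell. Of 15 genes of the unfolded protein response 12 rose and 1 fell in B16 and none changed in YUMM1.1, and 9 had a negative and 1 a positive difference, with a median of -0.62. Pdia6, a disulfide isomerase, rose in B16 from 365 to 384 CPM to 563 to 643, and was 654 to 717 and 558 to 769 CPM in YUMM1.1 (-0.89, SE 0.17, adjusted p = 0.00174). Herpud1, of protein degradation at the endoplasmic reticulum and also a target of Atf4, fell in B16 from 141 to 158 CPM to 36.0 to 40.4 and was 32.6 to 39.5 CPM in all YUMM1.1 libraries (1.73, SE 0.16, adjusted p = 1.51e-06).

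**Figure D5:**
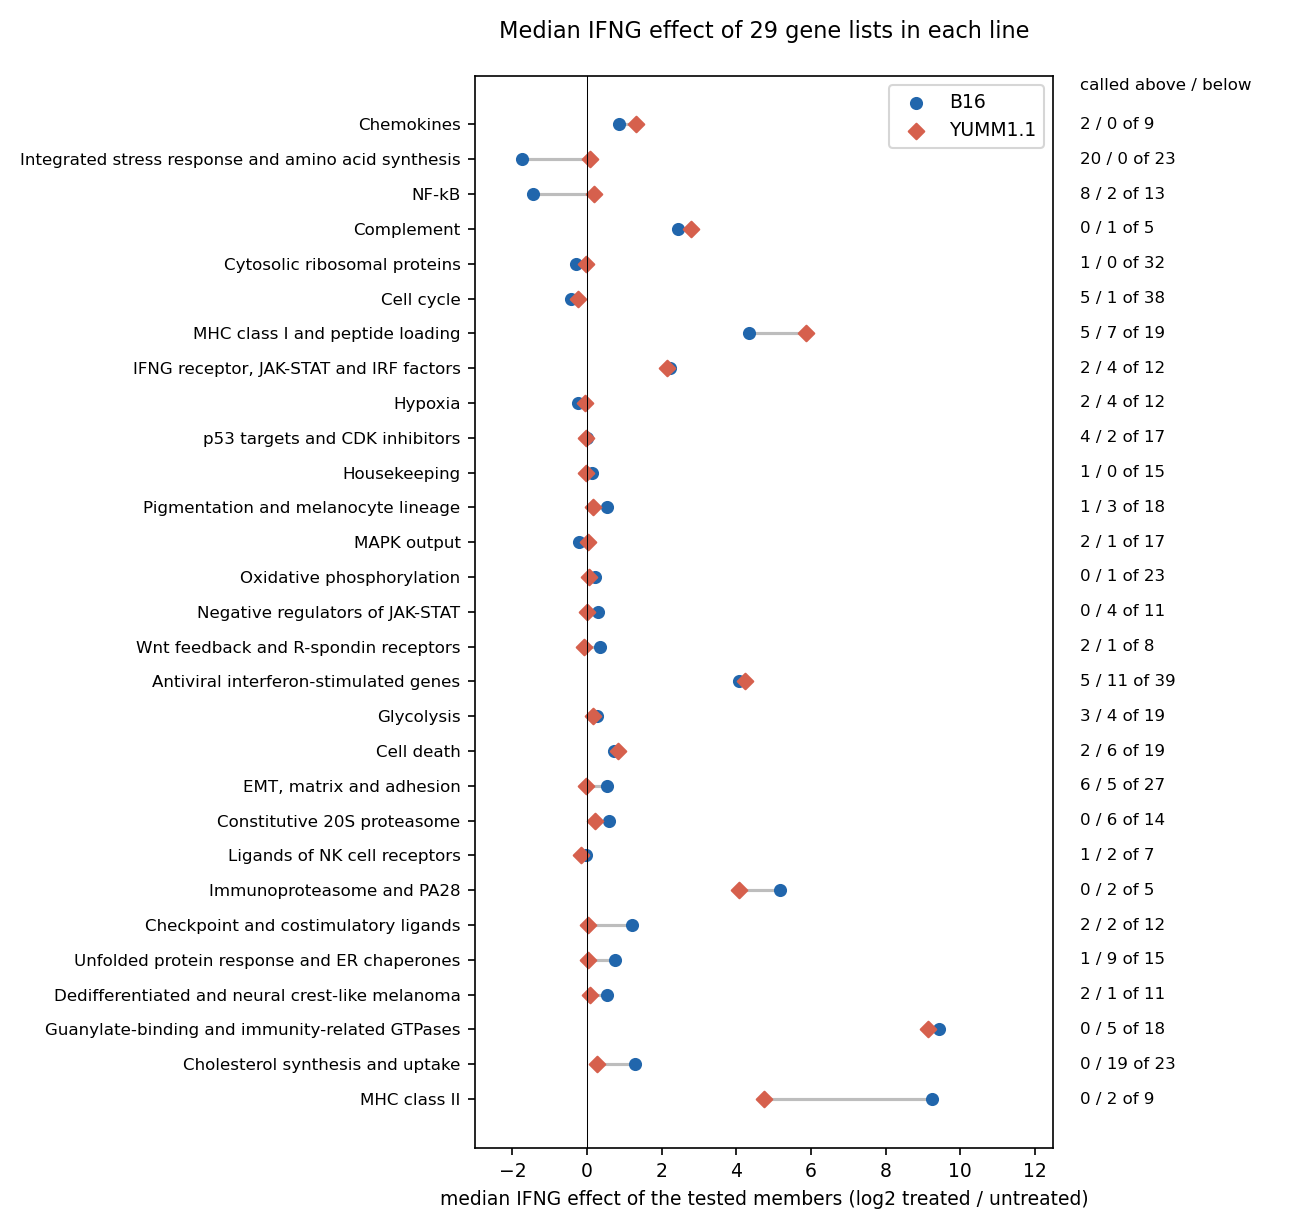
Median log2 effect of IFNG (x axis) in B16 and YUMM1.1 for 29 gene lists, sorted by the median difference, with the numbers of members above and below for the difference. In median difference class II genes stand at -3.92, the stress response list at 1.83 and the 9 tested chemokines at 3.11, against 0.02 for all genes. The median difference is taken over genes and need not equal the gap between the plotted medians, which for chemokines are 0.87 in B16 and 1.33 in YUMM1.1. Only 2 of the 9 chemokines and 2 of the 9 class II genes had a called difference.

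Genes of the NF-kB pathway fell in B16, and none had a call in YUMM1.1. Of 13 tested genes 9 fell and 2 rose in B16 and none changed in YUMM1.1, and 8 had a positive and 2 a negative difference, with a median of 1.25. Relb, of the alternative NF-kB pathway, was at 51.5, 51.6 and 42.4 CPM in B16 controls, 7.68, 5.37 and 4.07 in treated B16, 11.8, 12.6 and 14.0 in YUMM1.1 controls and 12.4, 15.4 and 15.1 in treated YUMM1.1. Treated B16 ended below every YUMM1.1 library, and the difference was 3.17 (SE 0.27, adjusted p = 5.04e-07). Tnfaip2, a target of the pathway, fell in B16 from 121 to 132 CPM to 14.6 to 21.9 with 169 to 229 CPM in YUMM1.1 (2.83, SE 0.20, adjusted p = 1.12e-07). The negative members were Rel and Sod2.

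Cell cycle genes fell in B16 more often than in YUMM1.1 by the calls, as did all tested genes (18.7% and 1.11%). Of 38 such genes 20 fell and 1 rose in B16 and 2 fell in YUMM1.1, and 5 had a positive and 1 a negative difference, against 18.5% called in either direction over all genes. The 5 became 3 without B16 control 1, B16 IFNG 1, YUMM1.1 control 3 or YUMM1.1 IFNG 1, and 2 without B16 control 2. Mki67, a proliferation marker, fell in both lines (-1.17 in B16, -0.79 in YUMM1.1) with no called difference (0.39, SE 0.31, adjusted p = 0.428). Myc, a growth-promoting factor, fell in B16 from 145 to 160 CPM to 27.4 to 40.6 and stayed at 22.9 to 39.3 CPM in all YUMM1.1 libraries (1.97, SE 0.28, adjusted p = 0.000106). Cdk2, a kinase of the S phase, rose in B16 (-0.99, SE 0.16, adjusted p = 0.000387) and overlaps the pigmentation gene Pmel.

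Of 17 p53 targets and CDK inhibitors 4 were above and 2 below, again beside 18.5% over all genes. Cdkn2a, a CDK inhibitor gene often deleted in melanoma models, had 0 reads in all 6 B16 libraries and was at 5.38 to 7.96 CPM in YUMM1.1. Cdkn1a, the CDK inhibitor p21, was at 244, 254 and 246 CPM in B16 controls and 36.8, 38.0 and 44.7 in treated B16, with 255 to 352 CPM over all YUMM1.1 libraries. Treated B16 alone lay far from the rest (2.42, SE 0.18, adjusted p = 1.89e-07). Trp53, which encodes p53, gave 1.36 (SE 0.16, adjusted p = 1.87e-05). Bbc3, a p53 target that promotes cell death, fell in B16 from 18.7 to 24.5 CPM to 1.81 to 4.18 with 14.9 to 19.6 CPM in YUMM1.1 (2.92, SE 0.30, adjusted p = 4.69e-06). It is 1 of 2 positive members among 19 cell death genes, with 6 negative, beside 9.95% positive and 8.51% negative over all genes. Casp12, a caspase gene of the inflammatory group, had 1 read in the B16 controls and 6.85 to 12.1 CPM after treatment (ratio 136.8, counting interval 24.19 to 5437), against a rise from 63.1 to 76.0 to 139 to 185 CPM in YUMM1.1. Its difference was -5.77 (SE 0.79, adjusted p = 5.71e-05), and without B16 control 3 no read is left in the B16 controls to give a fold. Mlkl, the executor of necroptosis, rose in both lines (-0.64, SE 0.15, adjusted p = 0.00704).

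Of 12 hypoxia genes 2 were above and 4 below, beside 9.95% above and 8.51% below over all genes. Vegfa, an angiogenic growth factor, fell in B16 from 52.8 to 66.3 CPM to 9.34 to 14.3 and was 26.3 to 42.6 CPM in YUMM1.1 (2.15, SE 0.26, adjusted p = 2.45e-05). Ddit4, an inhibitor of mTORC1 that Atf4 can also induce, fell in B16 from 61.4 to 70.7 CPM to 8.28 to 9.14 (2.95, SE 0.27, adjusted p = 1.44e-06). Of 19 tested glycolysis genes 3 were above and 4 below, beside the same shares over all genes. The 4 became 1 without B16 control 2 and 7 without B16 IFNG 3. Hk1, a hexokinase and 1 of the 3, was a case of a rise in YUMM1.1 alone by the calls. It went from 669 to 805 CPM to 1143 to 1246, with 89.6 to 127 CPM in all B16 libraries (0.74, SE 0.17, adjusted p = 0.00569).

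Pigmentation and dedifferentiation genes were expressed at very different levels in the lines. The difference was called for 1 above and 3 below of 18 and for 2 above and 1 below of 11, against 18.5% in either direction over all genes. Mc1r, the receptor for melanocyte-stimulating hormone, rose from 0.522 to 0.669 CPM to 1.45 to 1.76 in YUMM1.1 and stayed at 285 to 316 CPM in B16 (1.41, SE 0.22, adjusted p = 0.00027). A called difference can thus sit on a level in YUMM1.1 that is a small part of that in B16. Slc24a5, an ion exchanger of melanosomes, rose in B16 from 322 to 364 CPM to 546 to 588, with 0.809 to 1.52 CPM in YUMM1.1 (-1.28, SE 0.23, adjusted p = 0.00105), with no call after thinning (0.101).

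Axl, a receptor kinase of dedifferentiated melanoma, showed the reverse order of levels. It was at 12.3, 8.57 and 13.6 CPM in B16 controls, 91.9, 103 and 76.5 in treated B16 and 1258, 1161 and 905 in treated YUMM1.1. The YUMM1.1 controls stood at 1247 ± 63.4 CPM (SD, n = 3). The rise in B16 left it below every YUMM1.1 library, and the difference was -3.26 (SE 0.23, adjusted p = 1.12e-07). Nes, a neural progenitor filament, fell in B16 from 298 to 330 CPM to 39.5 to 47.1 with 880 to 1375 CPM in YUMM1.1 (2.91, SE 0.23, adjusted p = 3.41e-07).

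Of 27 genes for epithelial-mesenchymal transition, matrix and adhesion 6 were above and 5 below, beside 9.95% above and 8.51% below over all genes. Mcam, a melanoma adhesion molecule, had opposite calls, falling in B16 from 413 to 445 CPM to 54.1 to 71.2 and rising in YUMM1.1 from 494 to 703 to 745 to 862 (3.05, SE 0.19, adjusted p = 3.86e-08). Itga4, an integrin chain that binds Vcam1, fell in B16 from 184 to 248 CPM to 14.9 to 21.8 with 196 to 306 CPM in YUMM1.1 (3.35, SE 0.24, adjusted p = 1.12e-07). Spp1, the secreted matrix protein osteopontin, rose in B16 from 3.11 to 3.98 CPM to 28.7 to 33.9, with 89.3 to 247 CPM in YUMM1.1 (-3.48, SE 0.54, adjusted p = 0.000528). In all 6 genes above, YUMM1.1 held the higher level both untreated and treated.

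The most positive differences among genes expressed in both untreated lines came from large falls in B16, Trib3 among them. Lgr6, a receptor for R-spondins that strengthens Wnt signalling, was at 32.3, 34.9 and 33.8 CPM in B16 controls, 0.334, 0.596 and 0.452 in treated B16, 168, 99.97 and 114 in YUMM1.1 controls and 102, 121 and 89.8 in treated YUMM1.1. YUMM1.1 groups overlapped and B16 groups were far apart, a difference of 5.80 (SE 0.41, adjusted p = 1.12e-07). Odf3l1 fell from 49.6 to 51.0 CPM to 0.452 to 1.67 in B16 with 2.93 to 4.38 CPM in YUMM1.1 (5.69, SE 0.36, adjusted p = 3.86e-08). Daam2, an effector of Wnt signalling, had opposite calls (5.26, SE 0.41, adjusted p = 3.11e-07). Cspg4, the melanoma proteoglycan NG2, fell in B16 from 19.0 to 21.5 CPM to 0.301 to 1.99 with 166 to 576 CPM in YUMM1.1 (5.02, SE 0.61, adjusted p = 5.02e-05), or 5.71 without B16 IFNG 2. Abcb9, a peptide transporter of lysosomes, kept 3 reads in treated B16 (ratio 52.84, counting interval 17.71 to 259.4), and its difference was 5.29 (SE 0.61, adjusted p = 1.32e-05), or 6.22 without B16 IFNG 1 and 4.64 without B16 IFNG 3. Cfap70, a gene of cilia, had 0 reads in treated B16, where it was at least 16.35-fold lower.

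Rises in B16 of genes that YUMM1.1 already expressed stood at the negative end beside Gbp7. Tcf7, a Wnt-pathway transcription factor, was at 3.55, 3.59 and 2.72 CPM in B16 controls, 42.4, 40.8 and 37.5 in treated B16, 44.1, 57.6 and 42.8 in YUMM1.1 controls and 38.6, 30.1 and 28.3 in treated YUMM1.1. Treated B16 reached the YUMM1.1 range, and the difference was -4.22 (SE 0.26, adjusted p = 3.77e-08). Hist1h1c, a linker histone, rose in B16 from 6.61 to 9.89 CPM to 106 to 112 and was 63.8 to 83.3 CPM in YUMM1.1 (-3.89, SE 0.19, adjusted p = 2.24e-09). Ano3, of the anoctamin family, gave -3.75 (SE 0.31, adjusted p = 5.04e-07) and overlaps the coding gene Muc15.

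Among genes near 0 in untreated B16, the negative differences were genes that B16 switched on. Cdh6, a cadherin, had 0 reads in the B16 controls and 11.3 to 15.5 CPM after treatment, at least 68.98-fold higher, with 29.8 to 95.5 CPM in YUMM1.1 and no call there. Rapgef5, an activator of Rap GTPases, rose in B16 from 0.199 to 0.389 CPM to 36.6 to 48.2 with 3.92 to 9.11 CPM in YUMM1.1 (-7.10, SE 0.57, adjusted p = 3.4e-07). Slco2a1, a prostaglandin transporter, rose from 0.127 to 0.398 CPM to 19.1 to 24.7 with 1.23 to 2.46 CPM in YUMM1.1 (-6.82, SE 0.50, adjusted p = 1.27e-07). Treated B16 ended above YUMM1.1 for the last pair and below it for Cdh6.

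Of the 130 called genes near 0 in untreated YUMM1.1, 65 fell and 29 rose in B16 with no call in YUMM1.1. A fall in B16 was paired with a called rise in YUMM1.1 in 5, Apobr and Cyp26b1 among them. Apobr, a lipoprotein receptor, went from 4.27 to 13.3 CPM to at most 0.668 in B16 and from 0.447 to 0.836 to 1.32 to 2.67 in YUMM1.1 (6.75, SE 0.80, adjusted p = 1.76e-05), or 8.38 without B16 IFNG 1. It overlaps Cln3 and Il27. Cyp26b1, which breaks down retinoic acid, went from 13.15 to 17.1 CPM to 0.199 to 0.835 in B16 and from 0.411 to 0.627 to 1.07 to 1.33 in YUMM1.1 (5.94, SE 0.50, adjusted p = 5.04e-07). Nr4a3, an orphan nuclear receptor, rose in B16 from 36.3 to 47.8 CPM to 285 to 361 and stayed at or below 0.85 CPM in YUMM1.1 (-4.17, SE 0.57, adjusted p = 8.11e-05), or -3.40 without YUMM1.1 control 1 and -4.82 without YUMM1.1 IFNG 2.

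Opposite calls were seen for 58 genes, 37 of the 42 that fell in B16 and all 16 that rose there being expressed in both untreated lines. Gjc3, a connexin of glia, was at 77.6, 87.0 and 98.3 CPM in B16 controls, 15.7, 11.3 and 15.2 in treated B16, 96.0, 54.4 and 102 in YUMM1.1 controls and 116, 181 and 190.2 in treated YUMM1.1. The untreated lines overlapped and the treated did not, and the difference was 3.47 (SE 0.33, adjusted p = 2.11e-06). Hfe, a class I-like regulator of iron uptake, fell in B16 from 54.0 to 56.2 CPM to 22.1 to 27.6 and rose in YUMM1.1 from 0.47 to 0.874 to 2.27 to 3.15 (2.99, SE 0.28, adjusted p = 1.85e-06). The 16 genes that rose in B16 and fell in YUMM1.1 include the gap junction gene Gja1, the hypoxia gene Ndrg1, the kinase gene Map3k5 and the semaphorins Sema6d and Sema7a. The 58 became 30 without YUMM1.1 IFNG 2.

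Effects alike in both lines can be stated for few genes. Of 410 genes that rose in both lines 266 had no called difference, and of 48 that fell in both 32 had none, but a missing call does not show likeness. For 44 genes, 35 higher and 9 lower, the 95% interval of the difference lay within 1.5-fold either way. Besides B2m they include Psme1, a PA28 subunit (3.29 in B16, 3.15 in YUMM1.1, interval -0.56 to 0.27), and Mov10, an antiviral RNA helicase (2.02 and 1.92, interval -0.51 to 0.31). The count was 20 to 82 on leaving out single libraries: 21, 20, 28, 22 and 29 without B16 control 1, B16 control 2, YUMM1.1 control 2, YUMM1.1 IFNG 2 and YUMM1.1 IFNG 3, and 82 without B16 IFNG 3. Across the 13603 genes the effects correlated with a Pearson r of 0.522 and a Spearman rho of 0.227, as a description over genes, which are not independent.

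GAS and ISRE motifs were more frequent in the promoter windows of genes that rose in both lines than over all genes, as a description with no test. Motifs were searched on both strands in the windows of 9673 tested protein-coding genes, and 11.44% of these genes held at least 1 (GAS 8.22%, ISRE 3.76%). A gene with several windows counted once, if any of them held a motif. Of genes that rose in both lines and more in B16, 33 of 86 held a motif (38.37%), as did 5 of 16 with the larger rise in YUMM1.1 (31.25%) and 65 of 184 with no called difference (35.33%). The motifs differed when taken apart. GAS stood in 18 of the 86 genes with the larger rise in B16 (20.93%), in 1 of the 16 with the larger rise in YUMM1.1 (6.25%) and in 27 of the 184 (14.67%). ISRE stood in 22 (25.58%), 5 (31.25%) and 47 (25.54%). Of genes that rose in B16 with no call in YUMM1.1 the share was 93 of 768 (12.11%), and of those that fell in B16 with no call in YUMM1.1 97 of 874 (11.1%). A GAS and an ISRE may overlap in a window and count once here, and a motif match is not a binding site.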

How the data were processed

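Bulk RNA-seq of 12 libraries in 4 groups of 3 was used as raw read counts per gene, deposited by the authors as whole numbers with no normalization. The submitters' processing notes name the build GRCm38. For aligner, counter and strand the record used here gives nothing. Symbols and coordinates came from GENCODE M21, and promoters from RefSeq (GRCm38.p6). IDs with a symbol took 99.868% of counts or more in every library. The labels do not state separate cultures, so the spread between libraries may be technical only.

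CPM are counts over library totals. Genes were filtered with filterByExpr (minimum count 10, total 15), which left 13603, and scaled with TMM factors. Group means were fitted with edgeR 4.0.16 (robust quasi-likelihood, R 4.3.3) on all 12 libraries, and the difference and the effect in each line were contrasts of that fit. P-values were Benjamini-Hochberg adjusted over all tested genes, and called means below 0.05. The SE was taken as the size of the log2 value fitted without a prior count, divided by the root of F. The log2 values given include edgeR's prior count, and where reads are few they can differ from those without it. Where a group had 0 reads, 3 counts in the whole group served as the floor, and intervals are exact binomial at 95%. The fit was tested on simulated data.

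Genes were named by a rule: the largest differences in each untreated-level class, the 2 called members with the smallest p and the most abundant member of each list, a fixed IFNG set, opposite calls and effects alike. Of 95 genes whose difference is given 81 came from it, and the other 14, like Cdkn2a, given by level alone, were picked with their values known. A few genes of the lists are not reported here by name. The alike rule was also limited to genes with more than 3 reads in every group, and the Atf4 and sterol elements were added after results were seen. Of these genes 21 overlap a protein-coding gene, Ddit3, Itga4, Mc1r, H2-DMa and B2m among them, and reads there could belong to either. The genes and lists were chosen with earlier results of these data known. Alternatives used DESeq2 1.42.0 and limma 3.58.1, and figures matplotlib 3.10.9 in Python 3.11.15.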

Additional observations from a re-analysis of the deposited data

Results flagged for a closer look

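The effect of IFNG differed between the lines by the test of the difference itself for 2510 genes, 1353 above and 1157 below. The values that follow are log2 differences, YUMM1.1 minus B16, of the called genes described above. In interferon signalling and its feedback they were Ifngr2 (0.61), Jak2 (-0.51), Stat3 (-1.74), Irf1 (-0.91), Irf7 (1.74), Socs1 (-3.55), Socs2 (-2.59) and Socs3 (-1.67). Among antigen presentation and proteasome genes they were H2-K1 (1.89), H2-D1 (2.01), H2-Q4 (6.19), Tap2 (1.55), Nlrc5 (2.86), Calr (-0.75), H2-Eb1 (-7.67), H2-DMa (-6.56), Psme2 (-0.74), Psmb10 (-1.09), Psmb2 (-0.76) and Psma5 (-0.76). GTPases, antiviral genes and chemokines gave Gbp3 (-2.38), Gbp7 (-4.51), Igtp (-1.17), Bst2 (1.72), Ifit2 (-2.22), Samhd1 (-1.58), Rtp4 (4.93), Cxcl10 (2.37) and Ccl5 (3.67). Immune ligands and cell death genes gave Cd274 (1.05), Nectin2 (1.39), Cd47 (-1.37), Clec2d (-3.58), Casp12 (-5.77), Bbc3 (2.92) and Mlkl (-0.64). Stress response genes and chaperones gave Trib3 (5.36), Atf4 (1.70), Atf5 (3.94), Asns (2.31), Pycr1 (3.93), Slc7a11 (3.88), Chac1 (2.96), Ddit3 (1.97), Psat1 (1.49), Herpud1 (1.73) and Pdia6 (-0.89). For cholesterol synthesis the values were Hsd17b7 (-3.67), Hmgcs1 (-2.03) and Sqle (-1.32). NF-kB, growth, p53 and metabolic genes gave Tnfaip2 (2.83), Relb (3.17), Myc (1.97), Cdk2 (-0.99), Cdkn1a (2.42), Trp53 (1.36), Vegfa (2.15), Ddit4 (2.95) and Hk1 (0.74). Melanoma state and adhesion genes gave Axl (-3.26), Nes (2.91), Mcam (3.05), Itga4 (3.35), Mc1r (1.41), Slc24a5 (-1.28) and Spp1 (-3.48). Among the remaining genes with the largest differences or opposite calls were Lgr6 (5.80), Odf3l1 (5.69), Daam2 (5.26), Tcf7 (-4.22), Hist1h1c (-3.89), Abcb9 (5.29), Cspg4 (5.02), Ano3 (-3.75), Rapgef5 (-7.10), Slco2a1 (-6.82), Apobr (6.75), Cyp26b1 (5.94), Nr4a3 (-4.17), Gjc3 (3.47) and Hfe (2.99). For genes with 0 reads in a B16 group the fold in B16 is a bound: at least 185.3-fold higher for Ifi204, at least 68.98-fold higher for Cdh6 and at least 16.35-fold lower for Cfap70.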

How the results depend on the processing

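Alternatives were other scalings (RLE, library totals), no filter, 1 CPM in 3 libraries, DESeq2, limma-voom with and without group weights, thinned YUMM1.1 libraries, summed B16 IFNG 1 and 2, a stricter threshold, a replicate block, and leaving out each library. At an adjusted p below 0.05 the count of called differences ranged from 1784 (without B16 control 1) to 2827 (DESeq2). Every gene called in both the fit described above and an alternative kept its sign. The fits share most or all libraries, so a call in both leaves little room for a change of sign. At an adjusted p below 0.01 the count was 1355, with 752 above and 603 below, 1254 expressed in both lines, 27 near 0 in B16, 52 near 0 in YUMM1.1 and 22 near 0 in both. At that threshold 21 opposite calls, 23 effects alike and 488 calls in YUMM1.1 were left. Leaving out single libraries gave at the extremes 33 to 60 genes near 0 in B16, 34 to 64 near 0 in both, 30 to 81 opposite calls and 20 to 82 effects alike. Thinning gave 57 near 0 in YUMM1.1 and 21 near 0 in both. The count near 0 in both was 118 with limma-voom, 112 with group weights, 25 with an untreated level of 0.5 CPM as the limit and 108 with 2 CPM. Without a filter 100 opposite calls were found. Effects alike numbered 0 within 1.2-fold and 152 within 2-fold. The cause of these moves was not tested.

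With the replicate number as a block 2338 differences were called, 2197 of them shared. Deviations of libraries with the same number had correlations of 0.12, -0.0134 and 0.136 in B16, and of -0.018, -0.41 and -0.0713 in YUMM1.1. For unlike numbers they ran from -0.178 to 0.0933 in B16 and from -0.298 to 0.418 in YUMM1.1. With 3 libraries per group these values cannot decide whether the numbers pair the libraries. The block also called Ciita (adjusted p = 0.0185) and lost Jak2 (0.0564). Of 84 called genes with values in the text, 77 kept the call on leaving out any single library and 75 under every alternative at 0.05. The calls lost under alternatives other than single libraries were those of Jak2 (library totals, no filter, block; 0.0564 to 0.142), Ifngr2 (B16 IFNG 1 and 2 summed, 0.0515), H2-Eb1 (no filter, 0.142), Igtp (limma-voom, 0.0563), Ccl5 (limma-voom with and without weights), Cd274 (the same and thinning, 0.106 to 0.151), and Irf7, Tap2 and Slc24a5 (thinning, 0.0617, 0.106 and 0.101). B2m changed sign with B16 IFNG 1 and 2 summed (-0.030) and without B16 IFNG 2 (-0.039), the range over single libraries left out being -0.039 to 0.28. Cd74 changed sign without YUMM1.1 control 1, with a range of -2.12 to 0.53. These genes had no called difference. Depth limits the genes near 0, where the median SE was 0.759 to 0.969 against 0.214 for genes expressed in both lines.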
